A study of Mus musculus with 30 samples.

Results

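The 10 marker genes of fibro-adipogenic progenitors followed here were measured in mouse muscle RNA-Seq. They are PDGFRA, PDGFRB, LY6A, CD34, DPT, PI16, MFAP5, CLEC3B, GSN and DCN. They were picked by symbol from the deposited expression table, and all 10 were found among its 21073 genes. The extensor digitorum longus (EDL), a fast hindlimb muscle, was taken from 30 female SJL/J mice, 5 in each of 6 groups. EAE mice had been immunized with PLP139-151, a myelin peptide, in complete Freund's adjuvant (CFA), OVA mice with ovalbumin in CFA, and Ctrl mice had not been immunized. Each treatment was sampled on day 14, at the peak of experimental autoimmune encephalomyelitis (EAE), an animal model of multiple sclerosis, and on day 40, in remission. OVA mice share the adjuvant with EAE mice and Ctrl mice do not, and no pertussis toxin was given. Days 14 and 40 are different mice, so day, age and processing date cannot be told apart.

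Fibro-adipogenic progenitors (FAPs) are interstitial stromal cells that lie between muscle fibres and around vessels. They make the connective tissue matrix of the muscle, support satellite cells after injury, and can turn into adipocytes or matrix-producing fibroblasts. They are usually sorted as cells with PDGFRA and LY6A (also called Sca-1) on their surface, and PI16 and DPT are known from fibroblasts found across many tissues. None of the 10 genes is restricted to FAPs in a whole muscle.

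Levels are given as RPKM, reads scaled to the length of the gene and to the size of the library. Reads per mouse, estimated from the smallest steps in the table, ranged from 18.2 to 31.7 M with a median of 21.7 M, which makes 1 RPKM worth 18.2 to 31.7 reads per kilobase. The lowest value of any marker gene was 5.66 RPKM, or about 104 reads per kilobase, so no statement rests on a handful of reads. The sum of 10 myofibre genes was 62400 to 107000 RPKM, so each sample held muscle fibre RNA as labelled. A gene was called when its Benjamini-Hochberg adjusted p from limma was below 0.05 and its fold change above 1.5. Fold changes are differences of log2(RPKM + 0.1) and are given with their standard error (SE). Values are means ± SD over 5 mice unless listed mouse by mouse.

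The sequence before the start of 4 of these genes is shown to set the gene that fell most (PI16), others that fell (DPT and CD34) and the receptor that was not called (PDGFRA) side by side. Each line runs 5′ to 3′ on the plus strand, from 250 bases before to 50 bases after the start given by RefSeq for GRCm38.p6. Capitals mark matches to the motifs searched on both strands.
PI16 (chr17:29318632-29318931): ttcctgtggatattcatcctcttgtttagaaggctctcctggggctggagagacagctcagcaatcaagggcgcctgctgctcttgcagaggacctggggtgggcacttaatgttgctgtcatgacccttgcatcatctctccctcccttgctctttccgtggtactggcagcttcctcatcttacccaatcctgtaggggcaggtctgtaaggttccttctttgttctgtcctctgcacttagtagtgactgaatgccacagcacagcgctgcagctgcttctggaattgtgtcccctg
DPT (chr1:164796413-164796712): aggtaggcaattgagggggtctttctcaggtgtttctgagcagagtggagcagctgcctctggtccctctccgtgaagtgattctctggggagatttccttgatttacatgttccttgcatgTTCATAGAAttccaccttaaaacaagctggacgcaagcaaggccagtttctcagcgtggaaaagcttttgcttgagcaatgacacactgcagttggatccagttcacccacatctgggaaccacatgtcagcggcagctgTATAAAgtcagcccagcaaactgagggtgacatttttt
CD34 (chr1:194938571-194938870): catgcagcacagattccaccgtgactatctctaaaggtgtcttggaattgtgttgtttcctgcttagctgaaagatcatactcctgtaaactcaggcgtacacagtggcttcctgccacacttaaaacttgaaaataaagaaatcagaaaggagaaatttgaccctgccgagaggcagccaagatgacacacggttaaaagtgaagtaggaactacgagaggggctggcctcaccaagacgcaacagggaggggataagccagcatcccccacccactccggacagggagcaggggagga
PDGFRA (chr5:75152001-75152300): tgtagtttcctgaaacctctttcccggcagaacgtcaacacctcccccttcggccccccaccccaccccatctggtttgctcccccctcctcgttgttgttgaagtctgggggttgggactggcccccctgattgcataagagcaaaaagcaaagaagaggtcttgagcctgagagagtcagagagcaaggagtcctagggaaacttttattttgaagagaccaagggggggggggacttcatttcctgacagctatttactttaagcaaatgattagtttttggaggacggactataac
The PI16 window lies inside the gene as GENCODE annotates it (chr17:29317680-29330593). In the DPT window the letters of a TATA box (TATAAA) stood 13 bases after the start, not before it. Those of a gamma-activated site (TTCNNNGAA), the kind that STAT factors bind, stood 128 bases before the start. These letters occur in 13.6% and 8.3% of all 32851 RefSeq promoter windows of this length. The GC box (letters GGGCGG, in 35.7% of windows), the AP-1 motif (letters TGANTCA, in 7.81%) and an interferon response element (GAAA, any 2 bases, GAAA, in 3.44%) were not found in any of the 4 windows. RefSeq windows were matched for 5 of the 10 genes, the fifth being GSN, whose 3 windows (not printed) held 3, 1 and 2 matches of the GC box and none of the other motifs. A match says only that these letters are present in the window, and no match only that they are absent from it.

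At the peak of EAE the marker genes were low as a set, and unequally so. All 10 passed the filter on low values in EAE against Ctrl mice on day 14, all 10 had a log2 fold change below 0, and 8 were called lower (limma), against 11.8% of the 8771 genes tested called lower and 26.4% called in either direction. The median log2 fold change was -0.95 over the 10 genes and 0.11 over all genes tested. The range ran from PI16, which was 4.84-fold lower, to PDGFRA, which was 1.12-fold lower and not called. For the 8 called genes no EAE mouse overlapped any Ctrl mouse, as for 11% of all genes on that side. In RNA from whole muscle, fewer cells of a type and less RNA per cell cannot be told apart.

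PI16 is a secreted peptidase inhibitor domain protein of adventitial fibroblasts. On day 14 its level was 96.25, 72.68, 75.73, 55.33 and 65.36 RPKM in the 5 Ctrl mice. OVA mice had 48.51, 36.65, 27.39, 51.9 and 65.89 RPKM, and EAE mice 13.92, 9.96, 23.8, 15.45 and 13.73 RPKM. All EAE mice lay below all OVA mice, and OVA mice overlapped Ctrl mice at their upper end. PI16 fell by 2.28 on the log2 scale in EAE against Ctrl (SE 0.24, limma adjusted p = 4.53e-06) and by 1.57 against OVA (SE 0.24, adjusted p = 0.000114). Only 0.342% of all genes tested had a lower log2 fold change against Ctrl.

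MFAP5, a glycoprotein of elastic microfibrils (chr6:122505845-122529290), was next. Ctrl mice had 41.82, 30.35, 31.72, 27.07 and 28.8 RPKM on day 14, OVA mice 29.52, 13.52, 17.22, 23.55 and 28.15, and EAE mice 14.45, 8.43, 10.92, 10.01 and 9.97. One EAE mouse reached above the lowest OVA mouse, and none reached the Ctrl range. MFAP5 fell by 1.57 against Ctrl (SE 0.20, limma adjusted p = 2.55e-05) and by 1.01 against OVA (SE 0.20, adjusted p = 0.00111).

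CLEC3B encodes tetranectin, a plasminogen-binding lectin-like protein (chr9:123150946-123157432). Its Ctrl values on day 14 were 162.4, 114.6, 106.6, 89.73 and 93.03 RPKM, its OVA values 89.87, 66.34, 62.21, 83.86 and 91.77, and its EAE values 41.89, 33.04, 55.07, 45.0 and 42.62. The 3 groups were stepped, with EAE lowest and clear of both others, and OVA touching the bottom of the Ctrl range. CLEC3B fell by 1.36 against Ctrl (SE 0.17, limma adjusted p = 2.17e-05) and by 0.86 against OVA (SE 0.17, adjusted p = 0.00119).

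DPT (dermatopontin, chr1:164796644-164824266) and DCN (decorin, chr10:97479609-97518143) are matrix proteins that bind collagen fibrils and each other. DPT was 56.16, 76.6, 65.64, 57.38 and 67.34 RPKM in Ctrl, 58.04, 49.24, 43.72, 54.08 and 58.93 in OVA, and 37.48, 23.92, 30.66, 33.09 and 29.92 in EAE mice on day 14. It fell by 1.06 against Ctrl (SE 0.13, limma adjusted p = 1.54e-05) and by 0.77 against OVA (SE 0.13, adjusted p = 0.000264), with all EAE mice below all mice of both control groups. DCN, among the most abundant of the 10, was 417.5, 499.8, 442.7, 426.4 and 448.7 RPKM in Ctrl, 499.6, 372.5, 342.8, 427.0 and 393.9 in OVA, and 281.8, 219.8, 341.4, 277.7 and 269.7 in EAE mice. Here too no EAE mouse overlapped a control mouse, although the highest EAE and lowest OVA mouse nearly met. DCN fell by 0.70 against Ctrl (SE 0.13, limma adjusted p = 0.000441). Against OVA its log2 fold change was -0.55 (SE 0.13, adjusted p = 0.0029), which passes the p threshold and stays under the fold threshold of 1.5, so it was not called. It was called against OVA without OVA replicate 3 (-0.61) or EAE replicate 3 (-0.63), and with median-of-ratios scaling (-0.59).

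CD34 (chr1:194938819-194961279) is a surface sialomucin of progenitors and of endothelium. Ctrl mice had 57.91, 54.21, 53.4, 56.91 and 58.85 RPKM on day 14, OVA mice 41.14, 49.97, 43.44, 50.84 and 56.67, and EAE mice 29.86, 22.83, 36.64, 31.64 and 24.61. The Ctrl mice were tightly grouped and the EAE mice all lay below the lowest OVA mouse. CD34 fell by 0.97 against Ctrl (SE 0.13, limma adjusted p = 2.72e-05) and by 0.74 against OVA (SE 0.13, adjusted p = 0.000294).

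LY6A (chr15:74994877-74998031, minus strand), a membrane-anchored antigen that endothelium also carries and interferon induces, belongs to a cluster of closely related genes, so its counts may share reads with its neighbours. Ctrl mice had 234.5, 115.7, 141.5, 156.7 and 126.1 RPKM on day 14, OVA mice 121.8, 93.41, 111.7, 111.9 and 170.7, and EAE mice 93.66, 53.23, 97.56, 76.03 and 78.51. EAE mice were clear of Ctrl mice and overlapped the lowest OVA mouse. LY6A fell by 0.94 against Ctrl (SE 0.21, limma adjusted p = 0.00173) and by 0.61 against OVA (SE 0.21, adjusted p = 0.0277). The call against OVA was lost without OVA replicate 5 (log2 fold change -0.48, adjusted p = 0.0788), without EAE replicate 2 (-0.47, 0.0839) or without EAE replicate 5 (-0.61, 0.0504).

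GSN, gelsolin (chr2:35256380-35307892), severs actin filaments and is made by many cells besides FAPs. It was 790.8, 717.5, 754.7, 713.9 and 768.9 RPKM in Ctrl, 669.3, 492.3, 452.3, 638.8 and 621.5 in OVA, and 399.5, 408.2, 526.6, 471.3 and 532.8 in EAE mice on day 14. The Ctrl mice stood above both other groups, which overlapped each other. GSN fell by 0.69 against Ctrl (SE 0.13, limma adjusted p = 0.000532). That call was lost under quantile normalization, where the log2 fold change was -0.44 (adjusted p = 0.0278). Against OVA it was -0.29 (SE 0.13, adjusted p = 0.0819), which was not called.

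The PDGF receptors, the tyrosine kinases through which platelet-derived growth factors act on stromal cells, had the smallest differences and were not called. PDGFRA (chr5:75152292-75198215) was 5.85, 6.67, 7.12, 8.64 and 9.9 RPKM in Ctrl, 6.06, 10.04, 7.84, 8.74 and 7.13 in OVA, and 5.66, 6.55, 8.42, 6.72 and 6.35 in EAE mice on day 14. The 3 groups overlapped over most of their ranges. The log2 fold change of EAE against Ctrl was -0.16 (95% CI -0.50 to 0.17, limma adjusted p = 0.402), and against OVA -0.23 (95% CI -0.56 to 0.11, adjusted p = 0.265). PDGFRB, which mural cells of vessels also carry, was 11.16, 9.89, 13.86, 12.57 and 14.93 RPKM in Ctrl, 8.17, 12.56, 12.47, 13.04 and 10.95 in OVA, and 6.46, 10.11, 11.82, 10.22 and 10.26 in EAE mice. EAE replicate 1 was the lowest of all and the other EAE mice lay within the ranges of both control groups. Its log2 fold change against Ctrl was -0.36 (95% CI -0.72 to -0.0085, adjusted p = 0.0832), and against OVA -0.23 (95% CI -0.59 to 0.12, adjusted p = 0.282).

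**Figure D1:**
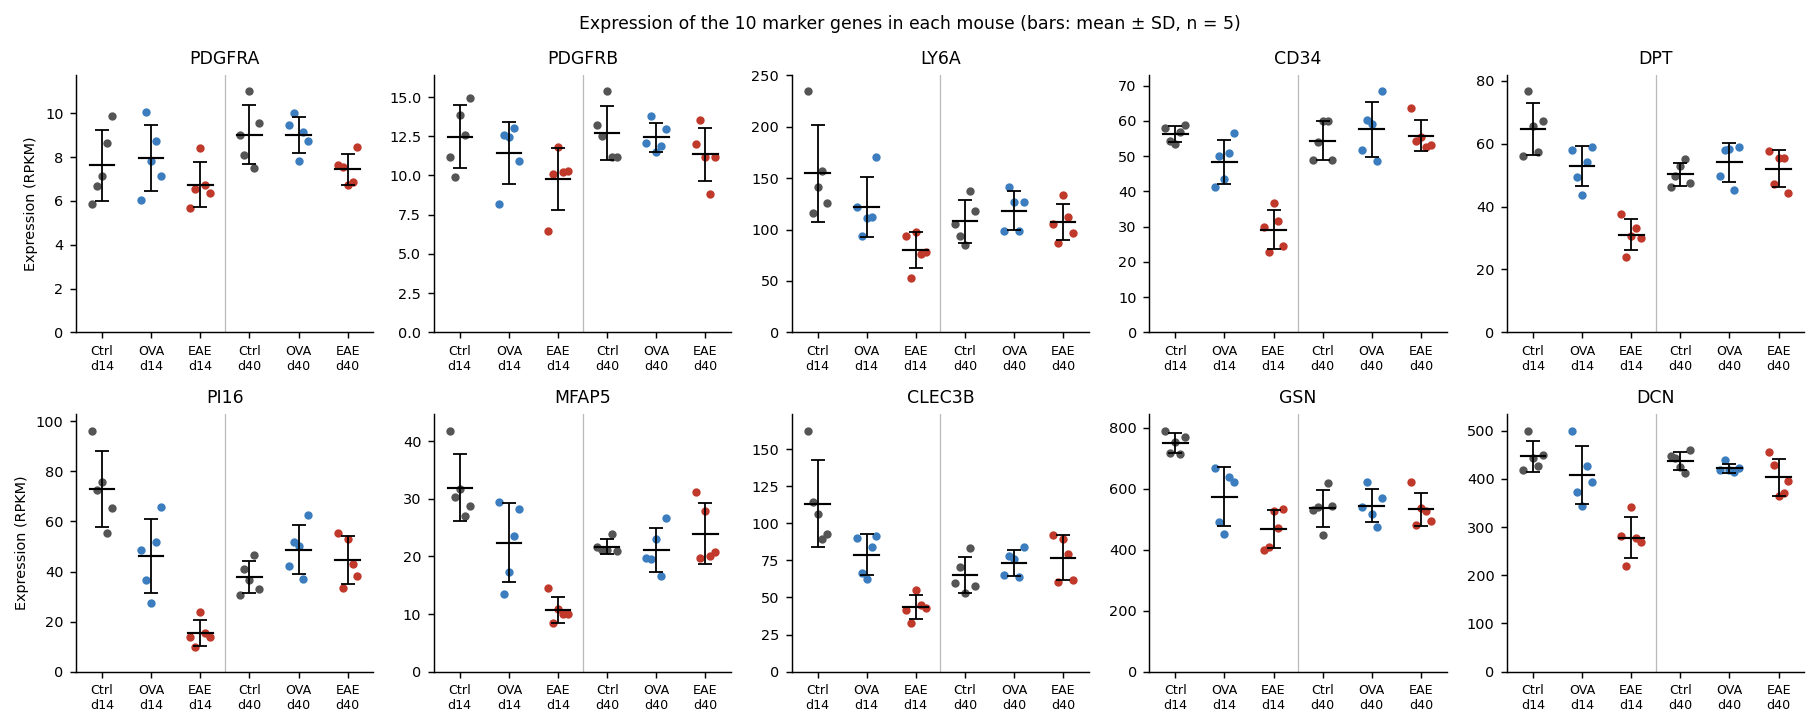
Level of each of the 10 marker genes (RPKM, linear axes from 0) in each of 30 mice, in 6 groups of 5, with the mean and SD. PI16 fell from 73.07 ± 15.15 RPKM in Ctrl to 15.37 ± 5.13 in EAE mice on day 14, whereas PDGFRA overlapped between all groups.

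Against OVA mice, 6 of the 10 genes were called lower on day 14 (LY6A, CD34, DPT, PI16, MFAP5 and CLEC3B), where 9.28% of the 8674 genes tested were called lower and 20.3% either way. The median log2 fold change was -0.68 over the 10 genes and 0.11 over all genes. No EAE mouse reached the OVA range for 5 genes (CD34, DPT, PI16, CLEC3B and DCN), as for 8.2% of all genes. EAE mice enter this comparison and the one with Ctrl, so the 2 are not independent of each other. Over all 25 mice of the other 5 groups, all 5 EAE mice on day 14 were below every other mouse for CD34, DPT, PI16 and DCN, as for 3.5% of 9049 genes. The same held for 4 of 5 mice for MFAP5 and CLEC3B, 3 for LY6A, 2 for GSN and 1 each for PDGFRA and PDGFRB.

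OVA mice lay below Ctrl mice by amounts that did not pass the test. None of the 10 genes was called in OVA against Ctrl mice on day 14 (limma), where 0.142% of the 8471 genes tested were called in either direction, and 5 had an unadjusted p below 0.05 (DPT, PI16, MFAP5, CLEC3B and GSN), as did 9.69% of all genes tested. The log2 fold change was below 0 for 9 of the 10, with a median of -0.31 against 0.00 over all genes. PI16 had -0.70 (SE 0.24, adjusted p = 0.365) and CLEC3B -0.51 (SE 0.17, adjusted p = 0.365). GSN had -0.40 (SE 0.13, adjusted p = 0.324), and all 5 OVA mice were below all Ctrl mice, as for 1.61% of all genes.

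**Figure D2:**
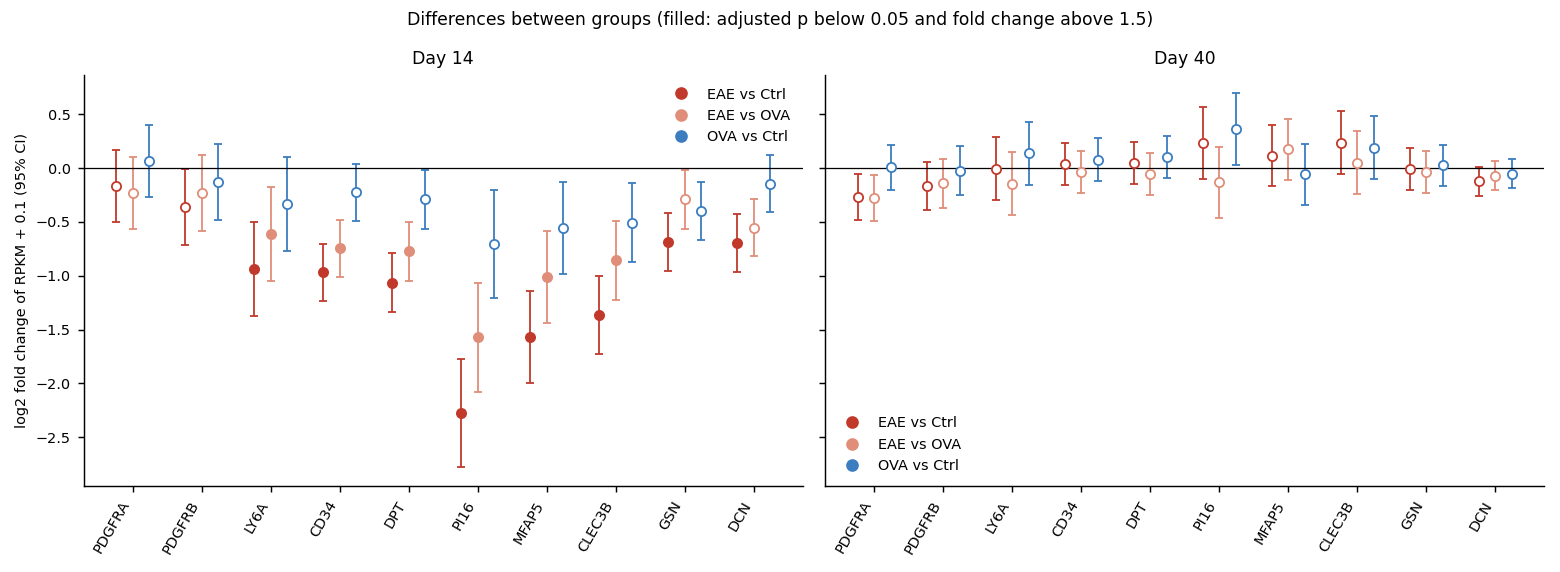
Log2 fold change of RPKM + 0.1 with its 95% CI for the 10 marker genes in 3 comparisons on day 14 (left) and day 40 (right), where filled points were called. On day 14 the EAE differences reach -2.28 for PI16, and on day 40 no point is filled.

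On day 40 the 3 treatments lay close together. PI16 was 30.73, 41.1, 36.56, 46.67 and 33.2 RPKM in Ctrl, 42.06, 51.9, 50.19, 37.05 and 62.61 in OVA, and 55.48, 33.45, 53.03, 42.86 and 38.3 in EAE mice. CD34 was 48.95, 54.1, 59.86, 59.91 and 48.8 RPKM in Ctrl, 51.75, 60.35, 59.13, 48.49 and 68.35 in OVA, and 63.67, 54.39, 55.32, 52.55 and 53.2 in EAE mice. For both genes the 3 groups overlapped. The same was true of DPT, at 50.21 ± 3.73, 54.04 ± 6.27 and 51.95 ± 5.89 RPKM in Ctrl, OVA and EAE mice.

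None of the 10 genes was called on day 40 in EAE against Ctrl (0.46% of 8691 genes called in either direction), in EAE against OVA (0.209% of 8598) or in OVA against Ctrl (0% of 8706). By limma 1 gene in each had an unadjusted p below 0.05, where 27.9%, 17.4% and 3.12% of all genes tested did. A share of 1 in 10 is below that background in both EAE comparisons. The gene was PDGFRA in both EAE comparisons, with 7.44 ± 0.70 RPKM in EAE, 9.03 ± 1.36 in Ctrl and 9.03 ± 0.82 in OVA mice. The log2 fold change was -0.27 (95% CI -0.48 to -0.06, adjusted p = 0.111) against Ctrl and -0.28 (95% CI -0.49 to -0.06, adjusted p = 0.18) against OVA. In OVA against Ctrl the gene was PI16, with 0.36 (95% CI 0.03 to 0.70, adjusted p = 0.999). For PI16 in EAE against Ctrl the 95% CI was -0.10 to 0.57, and for CD34 -0.16 to 0.24. Those intervals hold neither the day 14 difference of PI16 nor that of CD34.

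Between the days, more of the genes were called in EAE mice than in Ctrl mice, and in the other direction. In EAE mice 5 of the 10 genes were called higher on day 40 than on day 14 (limma), against 8.36% of the 8709 genes tested. PI16 was higher by 1.56 (SE 0.21, adjusted p = 8.69e-07), MFAP5 by 1.14 (SE 0.18, 7.1e-06), CD34 by 0.95 (SE 0.11, 7.46e-08), CLEC3B by 0.81 (SE 0.16, 0.000165) and DPT by 0.75 (SE 0.11, 3.79e-06). DCN was 0.54 higher (SE 0.10, adjusted p = 4.15e-05), under the fold threshold, as was LY6A with 0.44 (SE 0.18, adjusted p = 0.0468). The median over the 10 was 0.65 and over all genes -0.11.

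In Ctrl mice, which were never immunized, PI16 and CLEC3B were called lower on day 40 than on day 14, against 4.35% of the 8788 genes tested called lower. PI16 fell from 73.07 ± 15.15 to 37.65 ± 6.37 RPKM, by 0.95 on the log2 scale (SE 0.21, limma adjusted p = 0.00379). CLEC3B fell from 113.3 ± 29.25 to 64.9 ± 12.15 RPKM, by 0.79 (SE 0.16, adjusted p = 0.00234). Another 4 genes (LY6A, DPT, MFAP5 and GSN) had an adjusted p below 0.05 with a fold change under 1.5, all lower on day 40. The other 4 were not called, with log2 fold changes of 0.25 for PDGFRA, 0.03 for PDGFRB, -0.06 for CD34 and -0.03 for DCN. LY6A was called without Ctrl replicate 2 of day 14 (-0.59) or replicate 4 of day 40 (-0.59), and MFAP5 without Ctrl replicate 4 of day 14 (-0.59). In OVA mice none was called (3.97% of 8648 genes in either direction), and CD34 alone had an unadjusted p below 0.05 by limma (24.6% of all genes did), with 0.25 (SE 0.11, adjusted p = 0.157). The Ctrl mice of day 14 had the highest mean of the 6 groups for 7 of the 10 genes, all but PDGFRA, PDGFRB and CD34, and each day 14 fold change against Ctrl is measured from them.

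The difference between EAE and Ctrl mice itself differed between the days for 7 genes (LY6A, CD34, DPT, PI16, MFAP5, CLEC3B and GSN), in the limma test of the interaction. In each of them the log2 fold change of EAE against Ctrl was higher on day 40, where it lay between -0.01 (GSN) and 0.24 (CLEC3B), than on day 14. Of the 9013 genes tested, 11.7% were called in that direction. The difference between EAE and OVA mice changed for 5 (CD34, DPT, PI16, MFAP5 and CLEC3B), where 8.16% of 8935 genes were called. For OVA against Ctrl none was called (0% of 8848 genes), and 4 genes had an unadjusted p below 0.05 by limma (DPT, PI16, CLEC3B and GSN), as did 9.3% of all genes. All of these tests share mice.

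Levels of the other genes were also taken relative to PDGFRA in the same mouse. The ratio of PI16 to PDGFRA in RPKM was 10.2 ± 4.09 in Ctrl, 6.07 ± 2.57 in OVA and 2.25 ± 0.48 in EAE mice on day 14. The lowest Ctrl and OVA mice had ratios of 6.41 and 3.49, above the highest EAE mouse at 2.83. PI16 alone of the 9 genes had EAE ratios clear of both control groups on day 14. CD34, DPT, MFAP5 and CLEC3B were clear of Ctrl and overlapped OVA mice, and LY6A, GSN, DCN and PDGFRB overlapped both. The GSN ratio in EAE mice on day 14 (69.9 ± 8.78) was above its means in Ctrl (61.2 ± 15.3) and OVA mice (60.5 ± 5.95) on day 40. On day 40 the PI16 ratios were 4.30 ± 1.30, 5.46 ± 1.32 and 6.08 ± 1.57, with overlapping ranges. PDGFRB to PDGFRA stayed between 1.38 ± 0.10 and 1.66 ± 0.24 in all 6 groups. These ratios are descriptions without a test.

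**Figure D3:**
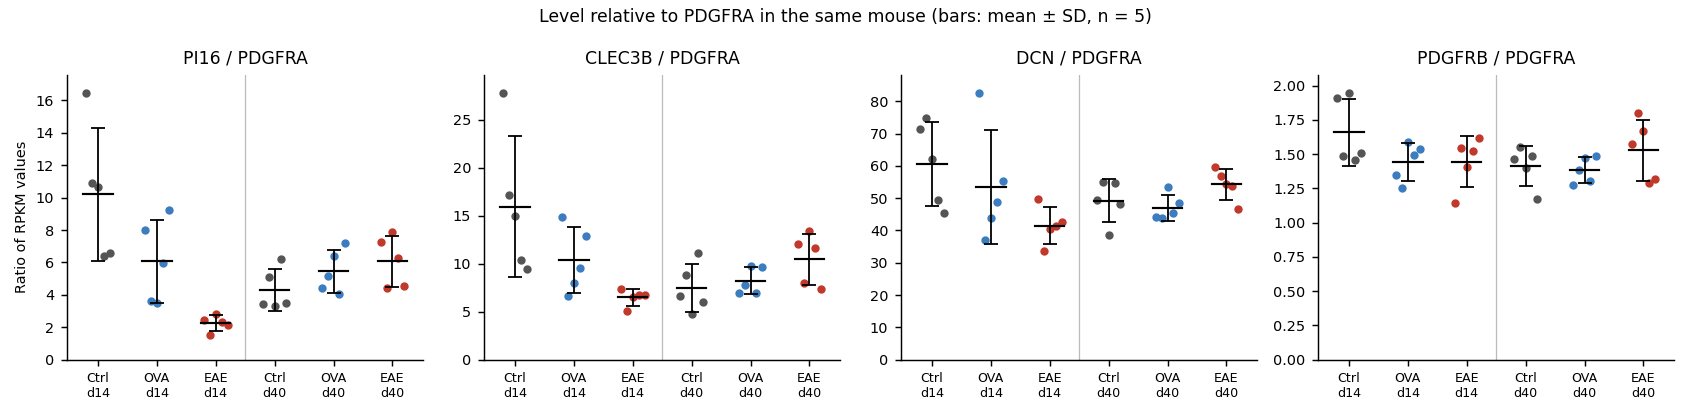
Ratio of the RPKM of PI16, CLEC3B, DCN and PDGFRB to that of PDGFRA in the same mouse, for 30 mice in 6 groups with the mean and SD. The PI16 ratio is lowest in EAE mice on day 14, at 2.25 ± 0.48, and the PDGFRB ratio stays near 1.38 to 1.66.

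Other genes known from FAPs and fibroblasts were listed for comparison. Of 22 such genes 15 could be tested in EAE against Ctrl on day 14, and their median log2 fold change was -0.67. Of these, 8 were called lower and none higher, where 11.8% of all genes tested were called lower. Of the 8, IL33 passed the filter of 3 RPKM only through its Ctrl mean, which favours a lower call. SERPINF1, which encodes the secreted factor PEDF, fell from 235.1 ± 20.4 to 59.92 ± 15 RPKM, by 2.00 (SE 0.16, limma adjusted p = 5.11e-07). THY1, a surface glycoprotein of fibroblasts, fell by 1.94 (SE 0.20, adjusted p = 4.41e-06). Against OVA mice 8 were called lower, where 9.28% of all genes tested were. CD55 (-0.62) was called there in place of SMOC2 (-0.57, under the fold threshold). IL33 again passed the filter only through the control mean (4.66 RPKM in OVA and 2.96 in EAE mice). Of the 22 genes, 7 were below the filter and were not tested.

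The ligands, matrix products and fat genes of these cells were counted the same way. In EAE against Ctrl on day 14, 11.8% of all genes tested were called lower. Of the 4 PDGF ligands 2 could be tested, and PDGFB was called lower in EAE against Ctrl on day 14, from 14.66 ± 1.39 to 9.03 ± 1.78 RPKM (log2 fold change -0.71, limma adjusted p = 0.000481). PDGFA had -0.34 (adjusted p = 0.06). Of 9 small leucine-rich proteoglycans tested besides DCN, 5 were called lower, led by KERA (-1.95) and FMOD (-1.53), which are also tendon genes. Fibrogenic matrix genes were called lower in 9 of 12, with a median of -1.40. COL1A1, a chain of type I collagen, fell from 431.5 ± 197.3 to 30.32 ± 11.53 RPKM, by 3.77 (SE 0.33, adjusted p = 1.2e-06), and COL1A2, the other chain, by 3.23 (SE 0.34, adjusted p = 4.68e-06). Against OVA mice, which had 186.2 ± 53.69 RPKM, COL1A1 fell by 2.64 (SE 0.33, limma adjusted p = 2.11e-05). COL1A2 fell by 2.32 against OVA (SE 0.34, limma adjusted p = 8.63e-05). CCN2, LOX and ACTA2 of that list were not called. Of 7 adipocyte genes tested 2 were called lower, CFD (-1.10) and LPL (-1.03).

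Markers of other cells that express some of the 10 genes moved in the same comparison. There 11.8% of all genes tested were called lower and 26.4% in either direction. Of 10 endothelial genes 3 were called lower (KDR, CLDN5 and EMCN). The sum of all 10 endothelial genes ranged from 134.9 to 179.5 RPKM in Ctrl and from 108.9 to 157.4 in EAE mice. Of 7 tenocyte genes tested 6 were called lower, led by CILP2 (-3.12) and TNMD (-2.83), and SCX, a transcription factor of tendon cells, was called higher (2.12). The sum of all 8 tenocyte genes listed was 569.5 to 815.7 RPKM in Ctrl and 290.5 to 456.8 in EAE mice. Of 8 macrophage genes tested 5 were called lower, led by C1QA (-1.04) and C1QB (-1.01). One of the 5, ADGRE1, passed the filter only through its Ctrl mean. The sum of all 10 listed was 290.2 to 440.6 RPKM in Ctrl and 139.1 to 311.3 in EAE mice. Of 12 interferon-stimulated genes 3 were above the filter in both groups, and these were called lower, with BST2 at 57.67 ± 42.38 RPKM in Ctrl and 11.33 ± 3.34 in EAE mice. Another 4 (IFIT1, IFIT3, IRF7 and ISG15) passed the filter only through their Ctrl mean, so that their lower calls carry no weight, and 5 were not tested. The sum of the 12 was 118.2 to 396.4 RPKM in Ctrl, 91.17 to 145.4 in OVA and 42.54 to 75.56 in EAE mice. The part of these genes in the marker gene differences was not tested.

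Myofibre and satellite cell sums also moved on day 14, in opposite directions. The sum of 10 myofibre genes was 84460 to 107000 RPKM in Ctrl, 76850 to 96620 in OVA and 62400 to 74120 in EAE mice, so that EAE mice lay below both. Among these genes only PVALB, the calcium buffer parvalbumin of fast fibres, was called, from 14930 ± 4780 to 5369 ± 1514 RPKM (-1.47). CKM (-0.50) and MB (-0.48) had an adjusted p below 0.05 by limma with a fold change under 1.5. MYH2 (0.47) and MYH1 (0.30) were higher and MYH4 was level (-0.0012). ACTA1 (-0.24), ATP2A1 (-0.10), MYLPF (-0.23) and TNNT3 (-0.40) were lower, and these were not called either. The sum of 8 satellite cell genes was 43.02 to 48.32 RPKM in Ctrl, 39.93 to 50.61 in OVA and 50.78 to 103 in EAE mice, above both. Of the 5 that could be tested CDH15 (0.97) and SDC4 (0.85) were called higher, as were 1282 of all 8771 genes tested. SPRY1 (0.29), VCAM1 (-0.37) and HEYL (-0.11) were not called. PAX7, MYF5 and CALCR were below the filter and were not tested. Among 8 mural cell genes tested NDUFA4L2 was called lower (-0.96) and ABCC9 higher (0.82). This is near the 26.4% of all genes tested that were called in either direction. The mural sum overlapped, at 85.69 to 113.4 RPKM in Ctrl and 88.97 to 127.5 in EAE mice. None of 5 Schwann cell genes tested was called and none had an unadjusted p below 0.05 by limma, where 55.4% of all genes did, with PMP22 at 36.42 ± 5.47 RPKM in EAE and 49.1 ± 4.47 in Ctrl mice. The sum of 8 Schwann cell genes was 109.2 to 117.8 RPKM in Ctrl and 76.67 to 116 in EAE mice. The part of these cells in the marker gene differences was not tested either.

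**Figure D4:**
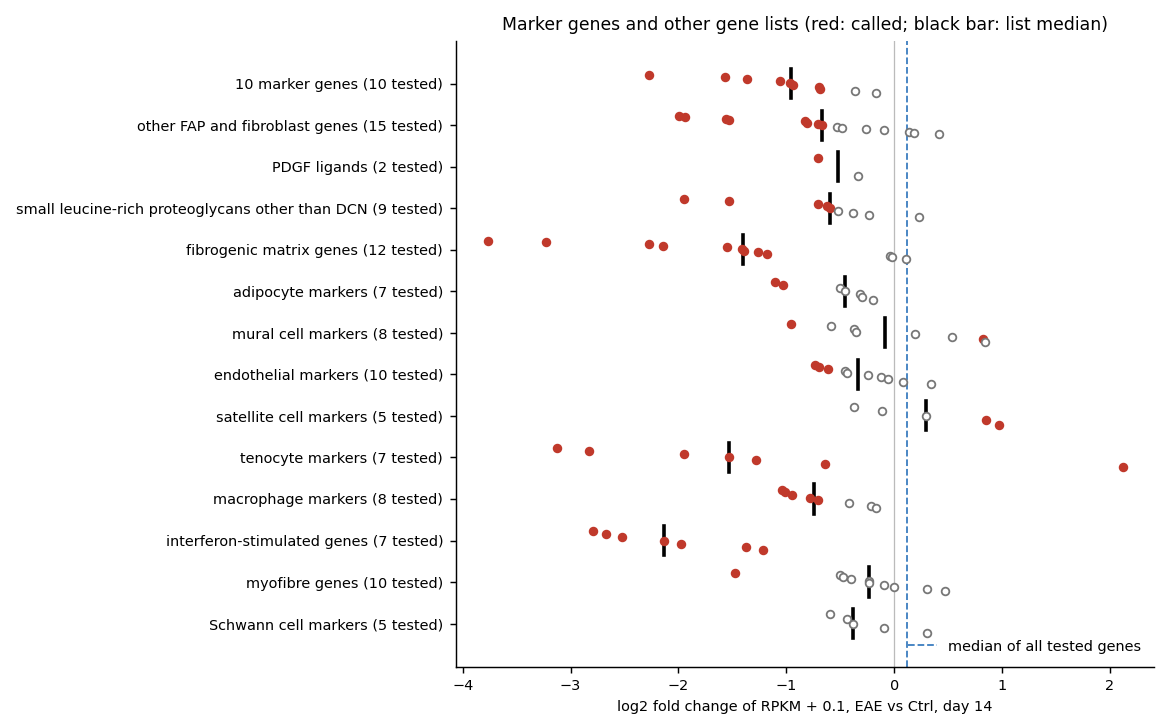
Log2 fold change of RPKM + 0.1 in EAE against Ctrl mice on day 14 for the genes tested in the marker list and 13 other lists, 1 point a gene, with list medians as black bars and the median of all genes tested as a dashed line at 0.11. The marker genes have a median of -0.95, with 8 of 10 called.

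The pattern over all 30 mice was compared by taking log2(RPKM + 0.1) minus its mean for each gene. The distance of a gene from the median profile of the 10 markers is the root-mean-square difference on that scale. DPT was closest of the markers at 0.11, followed by DCN at 0.15 and CD34 at 0.17. PDGFRB (0.33), PDGFRA (0.36) and PI16 (0.45) were farthest. The distance is not scaled for the size of a gene's differences. In EAE mice on day 14 the median profile ran from -1.05 to -0.29. PI16 ran from -1.97 to -0.72 there, and PDGFRA from -0.47 to 0.10.

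Among 9039 genes compared, the 10 nearest outside the list lay between 0.12 and 0.15. Among them were ITM2C, MPST, LPAR1, PEA15A, HTRA3, MXRA7, ATP6V0E2, TCEA3 and PKDCC. ITM2C, an integral membrane protein, was at 37.43 ± 4.98 RPKM in Ctrl, 30.63 ± 5.75 in OVA and 19.39 ± 3.02 in EAE mice on day 14. LPAR1, a receptor for lysophosphatidic acid, was at 7.41 ± 0.55, 7.00 ± 0.57 and 4.63 ± 0.55 RPKM in the same groups. HTRA3, a secreted serine protease, was at 34.04 ± 2.89, 28.54 ± 3.92 and 19.16 ± 5.20 RPKM. For these 3 genes the mean was lowest in EAE mice on day 14, a choice made by the likeness itself.

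**Figure D5:**
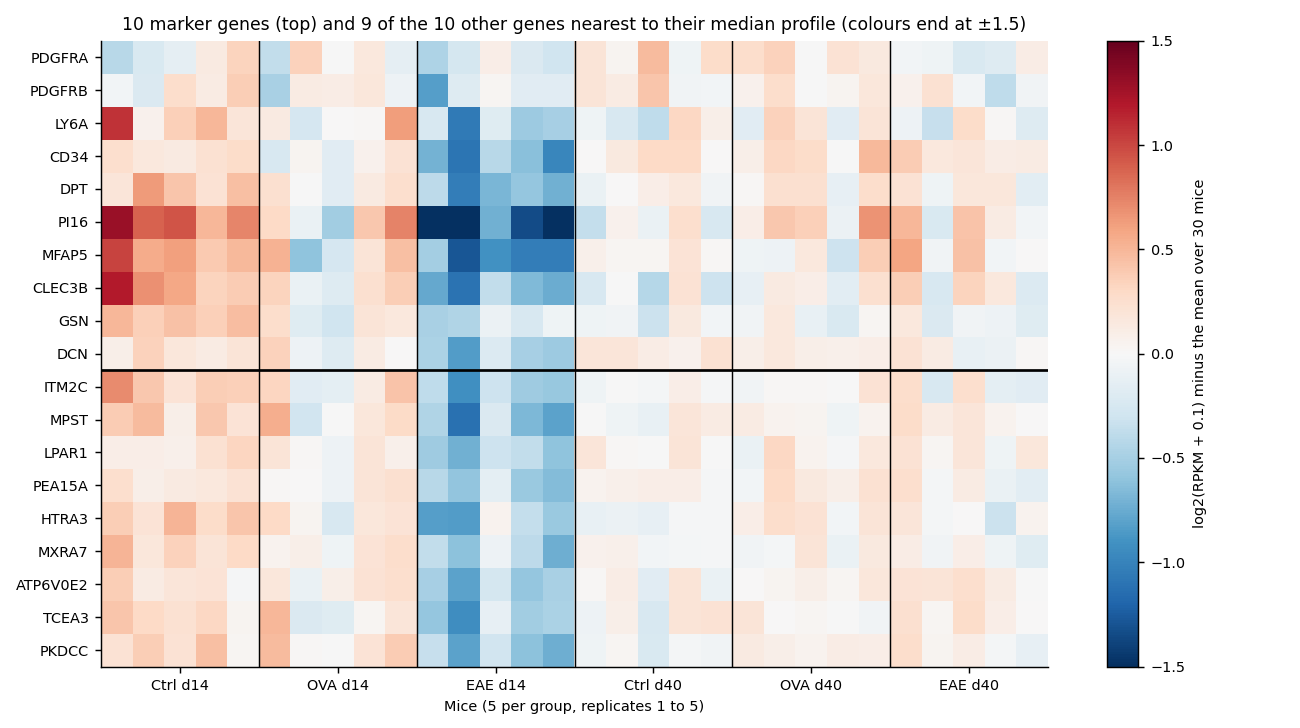
Centred log2(RPKM + 0.1) of the 10 marker genes (above the line) and of 9 of the 10 genes nearest to their median profile (below it) in 30 mice, where blue is below and red above the mean of the gene. The 5 EAE mice of day 14 form a mostly blue block, faintest for PDGFRA, PDGFRB and GSN. Replicate 3 of these mice is above 0 for PDGFRA (0.10) and PDGFRB (0.04).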

How the data were processed

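Poly(A) RNA of EDL muscle was sequenced in 30 mice, 1 library a mouse. The submitters' processing notes name Subread, featureCounts and mm10. The authors deposited 1 table of gene values described as RPKM. The values in it had been put on a log2 scale by the authors before they were deposited, as log2(RPKM + 1), which its largest value of 14.66 and the sum of RPKM times gene length show, and with 0.0001 written for 0. They were converted back to RPKM. No counts were used, so read depths are estimates from single-read steps. The deposited values carry library size scaling only.

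limma 3.58.1 in R 4.3.3 (lmFit, eBayes with a trend) was run on log2(RPKM + 0.1) for genes with a group mean above 3 RPKM in a compared group. The 15 mice of a day entered 1 model for comparisons within a day, and all 30 mice for those between days and for interactions. p-values were adjusted over all genes tested. The script was tested on simulated data. Genome positions are GENCODE annotation on GRCm38. Promoter windows of 5 of the 10 genes came from RefSeq. LY6A, MFAP5, CLEC3B and DCN have none here. Windows on chromosome 18 were left out, so PDGFRB, which lies there, could have none. Named genes were the 10 markers, the called genes with the largest changes in each list and the 10 nearest by profile. Values of some genes are not reported here. The markers, lists and tests were chosen with earlier results of these data known.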

Additional observations from a re-analysis of the deposited data

Results flagged for a closer look

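The difference between EAE and Ctrl mice changed from day 14 to day 40 in the limma interaction test, with a log2 difference of 2.51 for PI16 (adjusted p = 4.41e-07), 1.68 for MFAP5 (9.27e-06), 1.60 for CLEC3B (4.92e-06), 1.11 for DPT (4.93e-06), 1.01 for CD34 (1.42e-05), 0.94 for LY6A (0.0045) and 0.68 for GSN (0.000963). The GSN value was 0.20 under quantile normalization (adjusted p = 0.316). The difference between EAE and OVA mice changed by 1.44 for PI16 (limma adjusted p = 0.000525), 1.19 for MFAP5 (0.000667), 0.90 for CLEC3B (0.00322), 0.72 for DPT (0.000994) and 0.70 for CD34 (0.00103). Positive values mean that EAE mice lay nearer to, or further above, their controls on day 40. Each value against Ctrl combines the change between the days in EAE mice with that in Ctrl mice. For GSN these log2 changes were 0.19 in EAE mice (not called) and -0.49 in Ctrl mice. For CLEC3B they were 0.81 and -0.79, for PI16 1.56 and -0.95, and for CD34 0.95 and -0.06.

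In 2 of 60 groups of 5 mice the highest mouse stood apart from the others by Dixon's criterion, which chance gives in about 1 group of 20. MFAP5 was 23.84 RPKM in Ctrl replicate 4 of day 40, where the next highest mouse had 21.71. CD34 was 63.67 RPKM in EAE replicate 1 of day 40, where the next highest had 55.32.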

How the results depend on the processing

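No called difference of a marker gene changed sign in any alternative run (another pseudocount, filter, scaling, trend, fold threshold, set of mice or block, and each mouse left out). Without the fold threshold 6 marker genes instead of 2 were lower on day 40 in Ctrl mice. With 1 mouse left out the number called was 8 in each fit for EAE against Ctrl and 5 to 7 for EAE against OVA on day 14. It was 5 to 6 for EAE and 2 to 3 for Ctrl between the days, 7 to 8 and 5 for the interactions with Ctrl and OVA, and 0 for the other comparisons. The replicate block left every count as it was (8 and 6 on day 14), and it is no pairing: of 30 pairs with the same number on the same day, 8 deviated together with a correlation above 0.1. DCN passed the fold threshold in some fits of the EAE comparisons between days (0.62 without EAE replicate 3 of day 14). Over all genes, no filter gave 1603 higher and 1966 lower in EAE against Ctrl on day 14, and no fold threshold 2530 and 1665, in place of 1282 and 1036. Calls in EAE against Ctrl on day 40 ranged from 0 with all 30 mice in 1 model to 25 higher and 204 lower without the fold threshold, in place of 6 and 34. The share of calls that were higher moved with scaling: from 53.6% to 30.3% for Ctrl between the days (median-of-ratios), from 39.7% to 52.5% for EAE between the days (quantile), and from 35.9% to 52.3% for the interaction with Ctrl (quantile), where the median over all genes went from -0.15 to -0.01. It went from 37.4% to 55% for the interaction with OVA (quantile) and from 56.9% to 44.1% for OVA between the days (median-of-ratios). On day 14 the split turned under quantile normalization, from 55.3% to 46.9% higher for EAE against Ctrl (1171 lower in place of 1036) and from 54.3% to 45% for EAE against OVA (930 in place of 805). Comparisons with at most 40 calls are left out here. The cause was not tested. Depth limits only genes near the filter.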

Other observations

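In EAE mice 9 of the 15 other FAP and fibroblast genes tested were called higher on day 40 than on day 14, against 8.36% of all genes tested. Of the 9, IL33 passed the filter of 3 RPKM only through its day 40 mean (4.83 against 2.96 RPKM), which favours a higher call. FBLN1, which encodes the matrix protein fibulin-1, was called lower (-0.61, SE 0.15, limma adjusted p = 0.00126). SERPINF1 rose from 59.92 ± 15 to 178.6 ± 34.32 RPKM and THY1 from 7.29 ± 2.24 to 22.7 ± 4.07 RPKM. Fibrogenic matrix genes were called higher in 9 of 12, and COL1A1 rose from 30.32 ± 11.53 to 189.4 ± 77.26 RPKM. SCX went the other way, from 75.99 ± 54.19 to 9.33 ± 1.62 RPKM (log2 fold change -2.78, limma adjusted p = 4.69e-09).

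In Ctrl mice COL1A1 was lower on day 40 than on day 14, at 171.8 ± 56.48 against 431.5 ± 197.3 RPKM (-1.25 on the log2 scale, SE 0.32, adjusted p = 0.00784 by limma). Of the lists counted, EAE against Ctrl on day 40 called 1 gene, the matrix protein gene FN1, at 32.59 ± 4.29 against 62.55 ± 17.69 RPKM (-0.90 on the log2 scale, SE 0.18, adjusted p = 0.0236 by limma).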
